A study of Mus musculus with 24 samples.

Results

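The 10 genes described here are the myogenic regulatory factors *Myod1*, *Myf5*, *Myf6* and *Myog*, the myocyte enhancer factors *Mef2a*, *Mef2c* and *Mef2d*, the satellite cell genes *Pax7* and *Cdh15*, and the helix-loop-helix inhibitor *Id1*. They were chosen by name: every non-control probe that the scanner output assigns to 1 of these symbols was taken. This gave 14 probes on 41 spots, out of 55681 probes and 34797 gene names on 59305 spots of the array. Of these, 11 probes of 7 genes passed a filter that kept 14312 probes with a mean Cy5 signal over 2 times the local background, and the probes of *Myod1*, *Myf5* and *Pax7* did not pass.

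Male C57BL/6JOlaHsd mice, 10 weeks old on arrival, were fed a low-fat diet (10% of energy from fat) for 3 weeks and a high-fat diet (40% of energy from fat) for 6 weeks. In a fasted state, 12 mice were kept for 6 hours at 12% O2 (Hypox) and 12 mice at 20.9% O2 (Norm), to learn what short mild hypoxia does to muscle. Strain, sex, diet and fasting were thus the same in both groups. RNA of the whole *M. gastrocnemius*, a mixed calf muscle, of each mouse was labelled with Cy5 and hybridised with a Cy3-labelled pool of all samples, so that each value is a log2 ratio of 1 mouse to the pool. In such a tissue sample, fewer cells of a type and less RNA per cell cannot be told apart.

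Each of the 6 slides carried 4 arrays, 2 per group. Norm arrays had a mean Cy5 signal between 58.3 and 933 and Hypox arrays one between 63.5 and 1014, and between 9.42% and 37.8% of the probes of an array were well above background. On average Hypox arrays were brighter than Norm arrays by 0.23 on the log2 scale, and this held on 6 of 6 slides. All 12 skeletal muscle fiber markers of the tissue check, *Ckm*, *Acta1* and *Myh4* among them, passed the filter. Of the 8 satellite cell markers, *Cdh15* and *Chrdl2* were the only 2 that did, and *Pax7*, *Myf5*, *Myod1*, *Calcr*, *Fgfr4* and *Megf10* were too dim.

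Skeletal muscle is made and repaired by precursors called satellite cells, which lie between the fiber and its basement membrane. *Pax7* keeps these cells in their quiescent and self-renewing state, and *Myf5* and *Myod1* commit them to the muscle lineage. *Myog* then drives their differentiation into fibers, together with *Myf6* and the MEF2 factors. In adult fibers the same factors act on genes of the contractile apparatus and of the neuromuscular synapse, and *Myog* is known to rise when a muscle loses its nerve. Myogenic regulatory factors pair with E proteins and bind the E-box CANNTG, whereas ID proteins capture the E proteins and so keep the myogenic factors off DNA.

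The region upstream of *Myog*, the gene with the clearest difference, is shown first because it holds matches to the motifs of both families of factors; a match is a run of letters, not a shown binding site. The 250 bases before the start of the gene lie at chr1:134289754-134290003 on the plus strand of GRCm38.p6 (RefSeq). Capitals mark matches to the E-box CANNTG and to the MEF2-like motif CTANNNNTA, each searched on both strands, and no 2 matches overlap.
Myog upstream: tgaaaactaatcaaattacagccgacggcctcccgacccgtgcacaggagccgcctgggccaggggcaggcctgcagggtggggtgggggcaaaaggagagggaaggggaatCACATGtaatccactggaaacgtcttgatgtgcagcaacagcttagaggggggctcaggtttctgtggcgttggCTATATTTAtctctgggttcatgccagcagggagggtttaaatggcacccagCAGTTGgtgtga
The E-boxes CACATG and CAGTTG begin 138 and 12 bases before the start, and the MEF2-like match CTATATTTA begins 64 bases before it. Of 32851 promoter windows of this length, 66.2% held an E-box and 19.0% held the MEF2-like motif, so that a match as such is common. The narrower E-box forms CAGCTG and CACCTG, held by 13.0% and 17.2% of these windows, were also searched. The window of *Myog* held neither.

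The same window of *Cdh15*, which codes for the satellite cell adhesion molecule M-cadherin, is shown beside it, at chr8:122848124-122848373 on the plus strand of the same build. Capitals again mark the E-box CANNTG.
Cdh15 upstream: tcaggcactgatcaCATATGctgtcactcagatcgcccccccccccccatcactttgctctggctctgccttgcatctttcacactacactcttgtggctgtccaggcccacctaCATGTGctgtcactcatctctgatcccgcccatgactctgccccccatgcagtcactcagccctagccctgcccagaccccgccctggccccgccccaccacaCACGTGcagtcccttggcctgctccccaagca
It held 3 E-boxes, which begin 236, 135 and 32 bases before the start, and no match to the MEF2-like motif. RefSeq windows were at hand for 7 of the 10 genes. The windows of *Mef2a*, *Mef2d* and *Pax7* held neither motif, and that of *Myf5* held no E-box and 2 overlapping MEF2-like matches, 1 stretch read on both strands, which begin 182 and 181 bases before the start. Of the 3 windows of *Mef2c*, 1 held 2 E-boxes, 1 held 1 E-box and 1 MEF2-like match, and 1 held neither. The forms CAGCTG and CACCTG were in none of the 9 windows of these genes.

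Of the 11 tested probes of these genes, 2 passed an unadjusted p of 0.05, which is the threshold in the methods of the study. *Myog* was higher in Hypox, and 1 of 3 *Mef2a* probes was lower. *Myog* got past the brightness filter only through its brighter Hypox group, so that its place in this count is not independent of its difference. In the main fit (limma) no probe of these genes passed after Benjamini-Hochberg adjustment over all 14312 probes. Of all tested probes, 14.1% passed the unadjusted threshold, 7.48% higher and 6.57% lower in Hypox, and 0.999% passed after adjustment, so that the share among these probes is close to the background. The split of 1071 higher and 940 lower probes depended on the scaling: it was 581 and 1226 from the signals processed by the scanner software, 57 and 2 with arrays centred on their median, and in the deposited log2 values 420 and 554 (limma) or 426 and 616 (the methods' t-test). Counted with the brightest probe per gene, 1 of 7 genes passed, against 13.9% of 11679 gene names. Over all 10 genes, dim ones included, 8 had a log2 fold change above 0 with a median of 0.11, and over all 55681 probes 51.3% were above 0 with a median of 0.0023. The genes are counted by their brightest probe and the array by every probe, so that these shares are unlike in unit. The dimmer probes of *Mef2a* and *Mef2d*, left out of the count of genes, were all below 0.

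**Figure D1:**
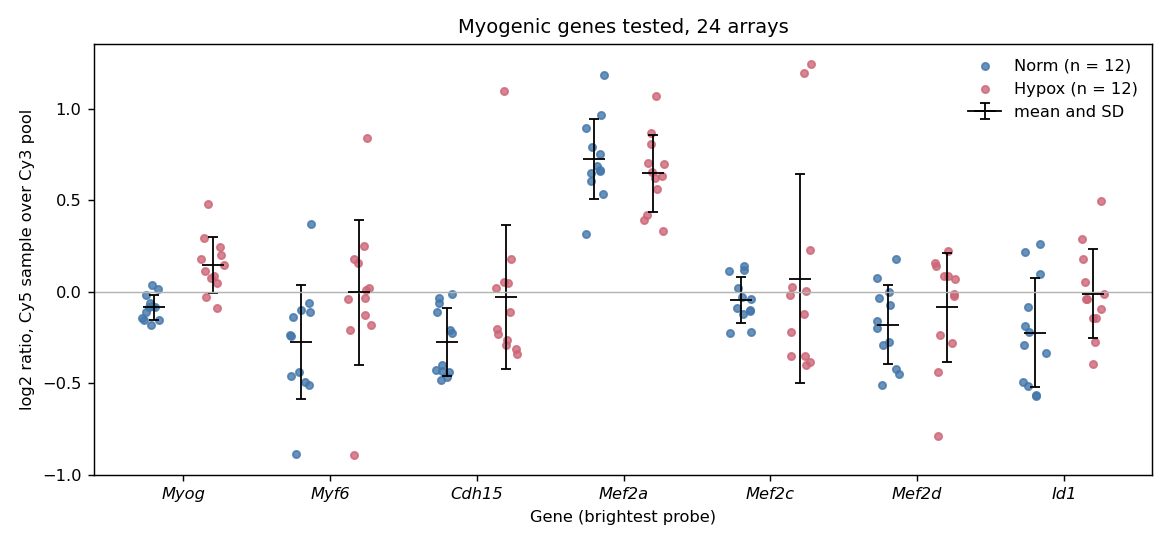
Log2 ratio of each mouse to the pool (y axis) for the brightest probe of the 7 genes tested (x axis), with each point 1 array, 12 Norm and 12 Hypox, and black marks the mean and SD of a group. The groups are most separated for Myog, and 1 or 2 Hypox arrays stand far above the others for Mef2c, Cdh15 and Myf6.

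*Myog*, the myogenic regulatory factor that drives differentiation, was measured by 10 spots of 1 probe at bases chr1:136188874-136188933 of mm9, the build of the array design. Its log2 ratio ran from -0.18 to 0.038 in Norm (median -0.084, n = 12) and from -0.086 to 0.48 in Hypox (median 0.13, n = 12). The groups overlapped little: 10 of 12 Hypox arrays lay above the highest Norm array. The study itself reported *Myog*, like *Cdh15*, as higher in Hypox from these same arrays, so that this direction is not a separate result. The difference was 0.23 on the log2 scale (SE 0.060, 95% interval 0.11 to 0.35), a 1.17-fold higher level in Hypox, with an unadjusted p of 0.00067 and an adjusted p of 0.0585 (limma), and it ranked 162 among 14312 probes.

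Within slides, *Myog* was higher in Hypox on 6 of 6, by 0.061 to 0.34, and an exact permutation test within slides gave p = 0.000257 (two-sided, over 46656 arrangements). Each of its 10 spots was higher in Hypox, by 0.11 to 0.36. This was not so in the deposited log2 values, where 8 of the 10 spots were higher, with differences from -0.072 to 0.28. Of these 10 spots, 2 passed the unadjusted threshold there by the methods' t-test. The spots of 1 array differed with a median SD of 0.15, against an SD between arrays of 0.069 in Norm and 0.15 in Hypox. Averaging 10 spots makes this dim probe more precise than a single spot would be.

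The *Myog* probe passed the brightness filter only narrowly, at 2.10 times the background, and only through the group in which it was higher: its mean was 1.87 times the background in Norm and 2.33 times in Hypox. In the fit over all 55681 probes, which does not use this filter, the unadjusted p was 0.000103 and the adjusted p 0.0713 (limma). A planned filter for probes well above background on at least 12 arrays left *Myog* out, as it was so on 11. These were 4 Norm and 7 Hypox arrays, and the median signal was 1.78 times the background in Norm and 2.23 times in Hypox. The size of the difference depended on the signal used. It was 0.38 (SE 0.099) with a smaller offset of 10 added to the signal. From the signals the scanner software had processed it was 0.61 (SE 0.23). Whether the offset accounts for these sizes was not tested. The call was lost in the log2 values the authors deposited (0.12, SE 0.11, p = 0.308). It was also lost with arrays centred only on their median (0.26, p = 0.0695), where the median of all probes was itself 0.24 and *Myog* lay 0.022 above it.

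*Myog* also followed the brightness of the array. With slide means removed, its log2 ratio correlated with the log2 mean Cy5 signal of the array with a Pearson r of 0.65 and a Spearman rho of 0.60 over 24 arrays (permutation within slides, adjusted p = 0.0224 and 0.0504 over 7 genes). Without the 2 arrays farthest from the median brightness r was 0.55, and with group means removed too it was 0.56. With brightness as a covariate the Hypox difference was 0.22 (p = 0.000758), and with slide as a block besides it was 0.18 (p = 0.0104).

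**Figure D2:**
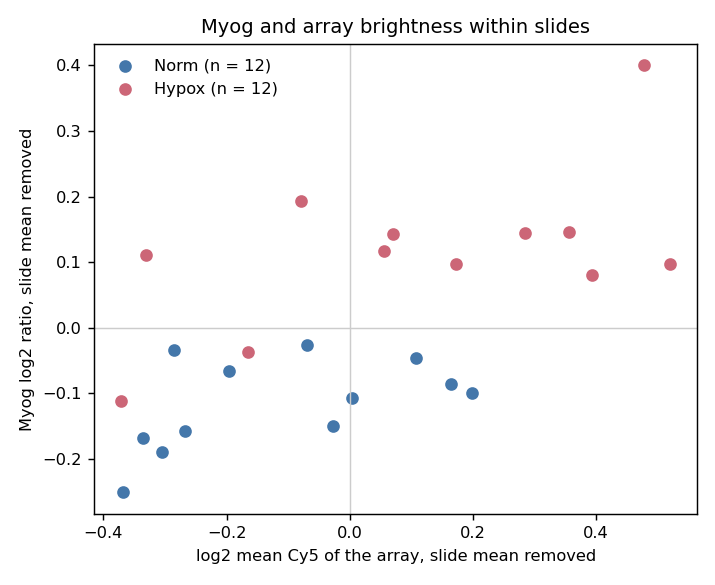
Myog log2 ratio (y axis) against the log2 mean Cy5 signal of the array (x axis), each with the mean of its slide removed, for 12 Norm and 12 Hypox arrays. Most Hypox points lie above the Norm points at the same brightness, and both groups slope upwards, with a Pearson r of 0.65 over all 24 arrays.

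*Myf6*, also called MRF4 and the most abundant of the 4 factors in adult fibers by general knowledge, was bright at 22.1 times the background and well above it on all 24 arrays. Its log2 ratio ran from -0.89 to 0.37 in Norm (median -0.24) and from -0.89 to 0.84 in Hypox (median -0.010). The groups overlapped over almost their whole range, although 11 of 12 Hypox arrays lay above the Norm median. The difference of 0.27 (SE 0.14, 95% interval -0.0082 to 0.56) had an unadjusted p of 0.0565 and an adjusted p of 0.37 (limma), and was positive on 4 of 6 slides.

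The myogenic determination factors were near the limit of the arrays. *Myod1* was at 1.99 times the background, just under the filter, and well above background on 6 Norm and 7 Hypox arrays. Its log2 ratio ran from -0.27 to 0.082 in Norm (median -0.075) and from -0.16 to 0.29 in Hypox (median -0.014), with wide overlap. In a fit over all 55681 probes its difference was 0.089 (SE 0.050, p = 0.0863), and all 10 of its spots were higher in Hypox, by 0.012 to 0.15. In the deposited log2 values 5 of the 10 spots were higher, with differences from -0.15 to 0.15.

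*Myf5*, the earliest of the 4 factors in development, was at 1.15 times the background and well above background on 0 of 24 arrays. Its log2 ratio lay between -0.080 and 0.092 on every array, with a difference of 0.014 (95% interval -0.047 to 0.075) in the fit over all probes. *Pax7*, the paired box factor that defines satellite cells, was at 1.41 times the background and also well above it on 0 arrays. Its ratio lay between -0.41 and 0.22 on Norm arrays and between -0.22 and 0.19 on Hypox arrays, with a difference of -0.033 (95% interval -0.16 to 0.094). No change of either gene was detectable at this brightness, which does not show that their levels were the same. The offset added to the signal also pulls the log2 ratios of such dim probes towards 0, and narrows these intervals.

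**Figure D3:**
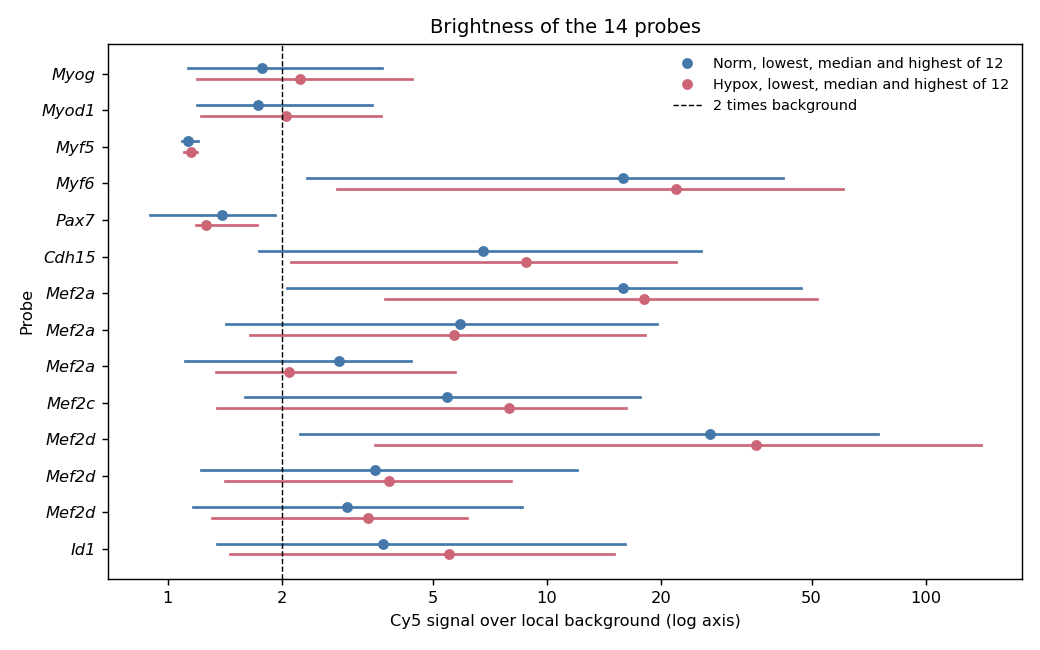
Cy5 signal over the local background on a log axis (x axis) for the 14 probes (y axis), with the median as a point and the lowest and highest of 12 arrays as a line, for Norm and Hypox. Myf5 and Pax7 stay below 2 times the background on all arrays, Myog and Myod1 straddle it, and Myf6 stays above it.

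Of the satellite cell genes only *Cdh15* could be tested, at 9.49 times the background and well above it on all 24 arrays. Its probe lies at chr8:125391031-125391090 of mm9. The log2 ratio ran from -0.48 to -0.013 in Norm (median -0.31) and from -0.34 to 1.10 in Hypox (median -0.16). No Hypox array was as low as the lowest Norm arrays, and 5 of the 12 exceeded the highest Norm array.

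The difference in *Cdh15* was 0.25 (SE 0.12, 95% interval -0.00073 to 0.49), 1.19-fold, with an unadjusted p of 0.0506 and an adjusted p of 0.357 (limma). It was positive on 5 of 6 slides, from -0.036 to 0.89. The test within slides, an exact permutation of the labels, gave p = 0.0159. The difference was 0.14 (p = 0.082) without Hypox replicate 2, which had the ratio of 1.10, so that 1 array carried much of it. *Chrdl2*, the other satellite cell marker bright enough to test, had a difference of -0.064 (p = 0.378).

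**Figure D4:**
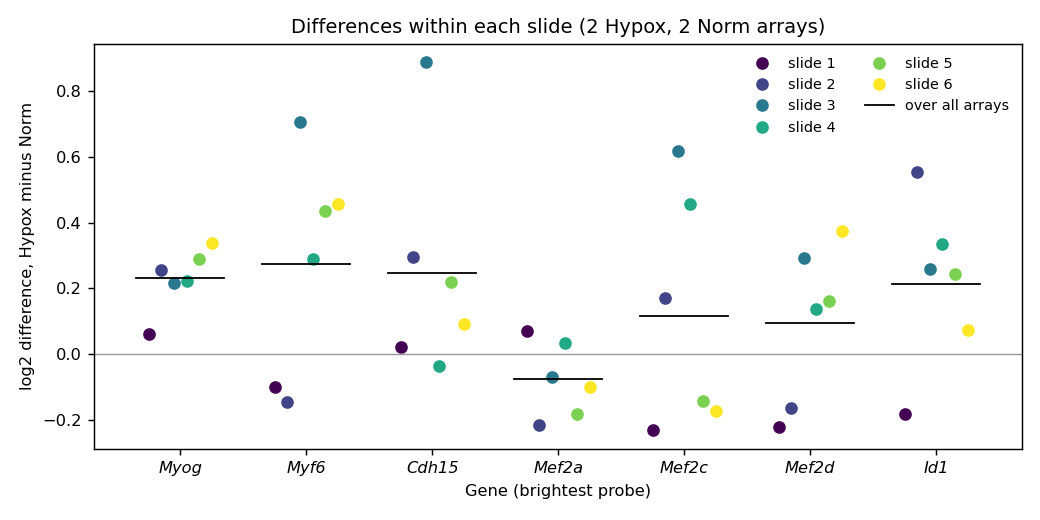
Hypox minus Norm difference in log2 ratio (y axis) within each of the 6 slides, with 2 arrays per group and slide, for the brightest probe of the 7 genes tested (x axis), and the difference over all arrays as a black line. Myog is above 0 on 6 slides, Cdh15 and Id1 on 5, and the slide with the largest Cdh15, Myf6 and Mef2c difference is slide 3.

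The MEF2 factors are MADS-box proteins that work with the myogenic factors on muscle promoters and respond to calcium and stress signals in fibers. *Mef2c* was measured by 1 probe at 7.36 times the background. The probe is shown because it crosses a splice junction: its 60 bases span 2238 bases of the genome, chr13:83772788-83775025 of mm9, and so it reads spliced RNA.
Mef2c probe: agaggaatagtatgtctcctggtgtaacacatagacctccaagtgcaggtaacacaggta
Its log2 ratio ran from -0.23 to 0.14 in Norm (median -0.061, SD 0.13) and from -0.40 to 1.25 in Hypox (median -0.070, SD 0.57).

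The Hypox group was thus far more spread than the Norm group for *Mef2c*, in both directions: 3 Hypox arrays exceeded the whole Norm range and 4 fell short of it. The ratios of Hypox replicates 2 and 6 were 1.25 and 1.20, and the next highest was 0.23. The mean difference of 0.12 (95% interval -0.21 to 0.44, p = 0.469) fell to 0.0083 without the first and to 0.013 without the second of these arrays. Hypox replicate 2 was also the highest of all arrays for *Cdh15* and, at 0.84, for *Myf6*, whereas Hypox replicate 6 was at -0.27 and -0.13 for these genes.

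*Mef2a* had 3 probes, which did not show the same size of difference. The brightest, at 18.4 times the background and chr7:74379575-74379634 of mm9, ran from 0.32 to 1.19 in Norm (median 0.68) and from 0.33 to 1.07 in Hypox (median 0.65), with a difference of -0.078 (95% interval -0.26 to 0.11, p = 0.39). The second (A_52_P175157, 6.65 times the background) gave -0.029 (p = 0.748). The dimmest (A_65_P08239, 2.75 times the background) ran from -0.12 to 0.72 in Norm (median 0.35) and from -0.42 to 0.37 in Hypox (median 0.11).

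That dimmest probe was lower in Hypox by -0.20 on the log2 scale (SE 0.097), with an unadjusted p of 0.0456 and an adjusted p of 0.345 (limma), and its groups overlapped widely. It was negative on 4 of 6 slides and well above background on 17 of 24 arrays. It passed the threshold in 11 of the 24 fits that leave out 1 array. Between the 3 probes, the correlation over 24 arrays with slide means removed ran from -0.014 to 0.42, so that they followed each other weakly.

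*Mef2d* also had 3 probes. The brightest, at 36.1 times the background, ran from -0.51 to 0.18 in Norm (median -0.18) and from -0.79 to 0.22 in Hypox (median 0.030), with a difference of 0.095 (95% interval -0.12 to 0.31, p = 0.37). The other two gave -0.048 (p = 0.533) for A_55_P1966958 and -0.094 (p = 0.341) for A_51_P504672. The latter is shown because it too crosses a splice junction, with 60 bases over 347 bases at chr3:87972214-87972560 of mm9.
Mef2d probe: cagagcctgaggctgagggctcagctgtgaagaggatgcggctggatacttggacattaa
With slide means removed, the brightest *Mef2d* probe correlated with the others at -0.35 and -0.26 over 24 arrays, and these correlated with each other at 0.35. The intervals given for *Mef2a* and *Mef2d* hold for 1 probe under 1 scaling, and do not show that the level of the gene stayed the same.

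*Id1*, a target of BMP signalling that is also made by endothelium, was measured at 5.62 times the background. Its log2 ratio ran from -0.57 to 0.26 in Norm (median -0.25) and from -0.39 to 0.50 in Hypox (median -0.040). The groups overlapped, with 2 Hypox arrays beyond the highest Norm array and 10 of 12 above the Norm median. The difference was 0.21 (SE 0.11, 95% interval -0.0078 to 0.43, unadjusted p = 0.0581, adjusted p = 0.375 in limma), positive on 5 of 6 slides.

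**Figure D5:**
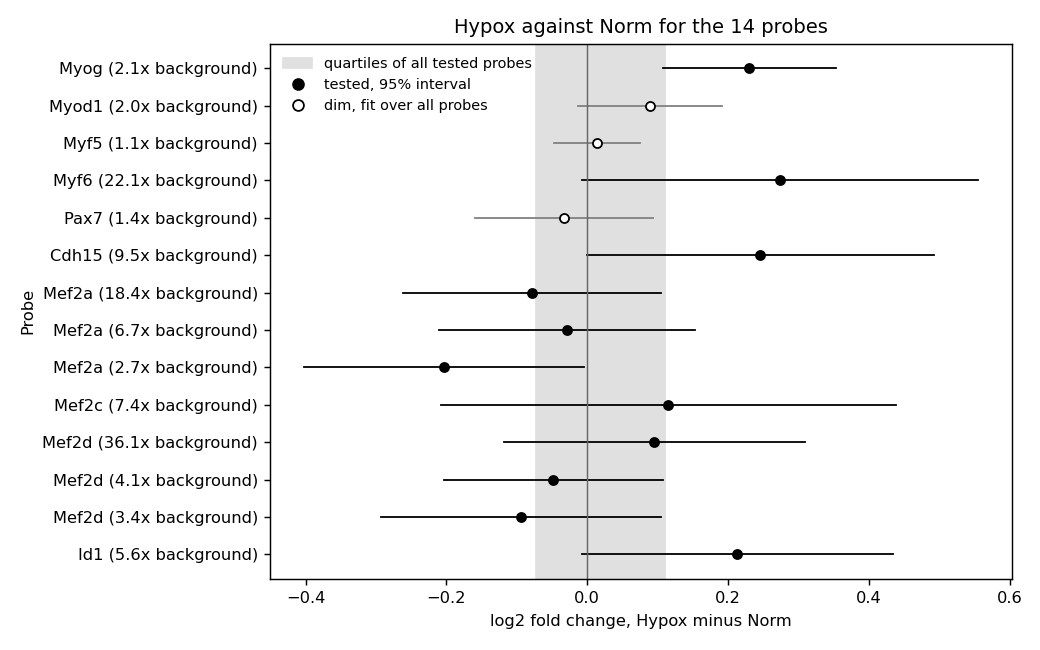
Log2 fold change of Hypox against Norm with its 95% interval (x axis) for the 14 probes (y axis, with the mean Cy5 signal over background). Filled points were tested, open points are dim probes from the fit over all probes, and the grey band spans the quartiles of all tested probes, -0.072 to 0.11; the interval of Myog lies above 0 and that of 1 Mef2a probe below it.

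Some endothelial markers were higher in Hypox as well. Of 8 endothelial markers tested out of 11, 3 were higher at the unadjusted threshold and none was lower, against 7.44% and 6.48% of all gene names: *Cdh5* (0.38, p = 0.00552), *Cldn5* (0.30, p = 0.00454) and *Esam* (0.28, p = 0.00145). None passed after adjustment, and *Kdr* (-0.15), *Flt1* (-0.045) and *Tie1* (-0.0040) were below 0 without passing. The count of 3 was 2 from processed signals and 0 with median centring. *Pecam1*, *Tek* and *Emcn* were too dim to test. The mean log2 ratio of the 8 genes ran from -0.30 to 0.019 in Norm (median -0.24) and from -0.18 to 0.0049 in Hypox (median -0.090).

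With slide means removed, the endothelial mean correlated with *Id1* at a Pearson r of 0.50 and with *Myog* at 0.65 over 24 arrays (Spearman rho 0.44 and 0.62). In permutations within slides the adjusted p over 14 relations was 0.183 for *Id1* and 0.0224 for *Myog* by Pearson, and 0.294 and 0.0504 by Spearman. Without the 2 arrays farthest from the median of the gene, r was 0.39 and 0.62. With group means removed as well, r was 0.33 for *Id1* and 0.12 for *Myog*, and the part of endothelial RNA in either difference was not tested. Against the mean of the 12 fiber markers, no member passed, with Pearson r from -0.33 for *Myog* to 0.47 for *Mef2d*.

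Among animals, the 7 tested genes were compared in pairs, with the difference between Hypox and Norm left in. With slide means removed, *Myf6* and *Cdh15* had the highest of 21 pairwise correlations (Pearson r = 0.64, Spearman rho = 0.50, 24 arrays), followed by *Myog* and *Id1* (0.54 and 0.54), *Myf6* and *Mef2d* (0.54 and 0.43) and *Mef2a* and *Mef2d* (0.51 and 0.55). None passed after adjustment over the 21 pairs, the smallest adjusted p being 0.148 by Pearson and 0.151 by Spearman (permutation within slides). Without the 2 farthest arrays the first of these was 0.57.

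The genes whose ratios were most like *Myog* over the 24 arrays, with group and slide means removed and among 11519 genes compared, were *Postn* (r = 0.74), *Kctd11* (0.74), *Csrp3* (0.74), *Serpinh1* (0.73) and *Col12a1* (0.73). In the same order, Spearman rho was 0.52, 0.60, 0.46, 0.57 and 0.72. These are the highest of 11519 correlations and were given no p-value, so that the ranking by itself does not show a link. *Myog* also followed array brightness with these means removed (r = 0.56), and the part of brightness in these correlations was not tested. *Postn* codes for the matrix protein periostin, *Serpinh1* for a collagen chaperone of the endoplasmic reticulum, *Col12a1* for a collagen chain and *Csrp3* for the muscle LIM protein. Between Hypox and Norm, *Postn* differed by 0.38 (p = 0.0475) and *Csrp3* by 0.38 (p = 0.0816), and the other three by 0.037 to 0.093.

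Genes linked to muscle differentiation and fusion were more often higher than lower, and whether the myogenic factors act on them here was not tested. Of 24 differentiation and fusion genes, 20 were tested, and 5 were higher at the unadjusted threshold and 0 lower, against 7.44% and 6.48% of all gene names, with a median of 0.070 against 0.023 over all gene names. *Mybph*, a myosin-binding protein, was 0.52 higher (SE 0.16, p = 0.00252, adjusted p = 0.108) on 6 of 6 slides. *Myl4*, an embryonic and atrial myosin light chain, was 0.28 higher (SE 0.12, p = 0.0237), and *Myh3*, the embryonic myosin heavy chain, was 0.38 higher (SE 0.17, p = 0.0342). The remaining genes of the 5, named after their values were seen, were *Tnnt2* (0.18, p = 0.0372) and *Cav3* (0.38, p = 0.0391). The count was 2 from processed signals, 1 in the deposited values and 0 with median centring, and in these settings too none was lower.

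At the neuromuscular synapse, where *Myog* is known to drive receptor genes after denervation, 6 of 10 listed genes were tested. *Chrna1*, a subunit of the acetylcholine receptor, was higher by 0.30 (SE 0.11, p = 0.0116), and *Musk*, the kinase that organises the synapse, by 0.29 (SE 0.12, p = 0.0208), each on 6 of 6 slides. At the unadjusted threshold 2 of the 6 were higher and none was lower, against 7.44% and 6.48% of all gene names. The other listed genes, *Chrng*, *Chrne*, *Chrnb1* and *Lrp4*, were too dim. The study reported *Chrna1* and *Musk*, and with them *Myog* and *Cdh15*, as higher from these same arrays. Their differences are therefore not a separate result. An action of *Myog* on *Chrna1* and *Musk* was not tested. Adjusted p-values of *Chrna1* and *Musk* were 0.208 and 0.256 (limma). With median centring neither passed (p = 0.136 and 0.108), and from processed signals *Musk* did not pass (p = 0.0604), so that 1 gene of the list was higher and 1 lower there.

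Other genes of satellite cells and myoblasts went the other way or did not pass. Of 27 genes 16 were tested, with a median of -0.066 against 0.023 over all gene names, and of -0.024 in the deposited values. Of the 16, 0 were higher and 3 were lower, against 7.44% and 6.48% of all gene names. The 3 lower genes were *Lbx1*, a homeobox factor of migrating muscle precursors (-0.25, p = 0.0126), *Itgb1*, the integrin β1 chain (-0.19, p = 0.0135), and *Cd34*, a surface protein of satellite cells and also of endothelium and fibroblasts (-0.26, p = 0.0472). With arrays centred on their median, where all probes shift by 0.24, these were at 0.16, 0.0049 and 0.15, below that shift, and in the deposited values *Itgb1* alone passed. Beside them, 3 of 6 Schwann cell markers, 2 of 3 adipocyte markers and 1 of 7 markers of fibro-adipogenic cells were lower and none of these higher, and none of 4 macrophage, 6 smooth muscle and 3 red blood cell markers passed. In the deposited values 2 Schwann cell markers were lower, and no adipocyte or fibro-adipogenic marker passed. With median centring no marker of these cell types passed. Of 12 fiber markers, *Mylpf* was higher (0.36, p = 0.000941) and *Ryr1* lower (-0.56, p = 0.0145), and their median of -0.23 was 0.37 in the deposited values and 0.55 with median centring. Of 2 lung markers tested, *Sftpc* was higher (0.81, p = 0.0157). The part of these cells in the differences was not tested.

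Among the Notch pathway, which holds satellite cells undifferentiated, 8 of 14 genes were tested. *Hey1*, a repressor that Notch induces, was 0.37 higher in Hypox (SE 0.088, p = 0.00026) on 6 of 6 slides. In the main fit it was the only gene of these lists to pass after adjustment over all probes (adjusted p = 0.0355, limma). No other Notch gene passed. From processed signals *Hey1* did not pass even the unadjusted threshold (0.69, p = 0.064). It is dim, at 2.92 times the background, and is also an endothelial gene.

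Of the partners and inhibitors of the myogenic factors, 9 of 17 were tested. *Hes6*, which favours differentiation, was higher by 0.24 (p = 0.00948), and *Tcf4*, an E protein, was lower by -0.21 (p = 0.0319). Of 23 tested cofactors and regulators of MEF2, only *Camk2b*, a calcium-dependent kinase, passed, and it was lower by -0.23 (p = 0.00893), with a median of -0.071 over the list. With median centring, *Tcf4* and *Camk2b* were at 0.087 and 0.21, below the shift of 0.24. In the deposited values neither passed, with *Tcf4* at -0.057 and *Camk2b* at 0.030, and *Hes6* did not pass with median centring (p = 0.0949).

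Around *Id1*, the BMP receptors *Acvr1* (-0.28, SE 0.073, p = 0.000565, adjusted p = 0.0543) and *Bmpr2* (-0.28, SE 0.12, p = 0.0329) were lower in Hypox, as the only 2 of 10 BMP and SMAD genes tested to pass, with median centring placing *Acvr1* at 0.018, below its shift. Neither passed in the deposited values (p = 0.284 and 0.178). *Acvr1* was lower on 6 of 6 slides, opposite to the direction of *Id1*. Of 16 cell cycle genes 6 were bright enough to test, and *Mcm3*, a part of the replicative helicase, was higher by 0.19 (p = 0.0131), a call lost from processed signals (p = 0.129), from Cy5 alone (p = 0.161) and with median centring (p = 0.14). *Mki67*, *Top2a* and *Cdk1* were among those too dim, so that division of satellite cells could not be read from these arrays.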

How the data were processed

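The authors deposited, for each of 24 arrays, the intensity of every spot (mean signal and local background of Cy5 and Cy3) as written by Agilent Feature Extraction 10.7.3.1, and a series table of log2 values normalized with GeneMaths XT, whose scaling is not given in the sources used here. Which dye held which RNA was read from the description of each sample, because a dye field of several Hypox samples names another dye. Here, control spots and 7260 flagged spot readings were left out, signals were corrected with normexp (offset 50), log2 ratios were normalized by loess, and replicate spots were combined as their mean. Probes with a mean Cy5 signal over 2 times background and at most 4 missing arrays were tested with limma 3.58.1 (R 4.3.3), without covariates. Dim probes were fitted with all 55681 probes. In simulated data, 98% of 200 probes changed by 1 on the log2 scale were recovered. That change is larger than the difference of any member, and recovery of smaller changes was not simulated. The number of arrays limits the precision. The condition came from the labels.

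The members and gene lists were chosen with earlier results of these data known. Named were all members, up to 3 genes per list and direction with the smallest p under 0.05, and the 5 genes most like *Myog*. Lists are described by counts and medians of the brightest probe per gene, and markers by the mean ratio of those tested. Correlations used 10000 permutations within slides. Exon and UTR positions of the probes were not used here. Alternatives were processed signals, median centring, the Cy5 channel only, the methods' t-test, the log2 table of the authors, another offset and filter, slide or replicate block, array weights, probe summaries, leaving out each array and, chosen after seeing the data, leaving out the dimmest slide and brightness as a covariate.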

Additional observations from a re-analysis of the deposited data

How the results depend on the processing

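*Myog* kept its direction in the 18 alternatives that tested it and passed in 15, with values from 0.12 to 0.61, and passed in all 24 fits that leave out 1 array (0.20 to 0.25). The filter for probes well above background on at least 12 arrays left it out. It did not pass with median centring (0.26) or in the deposited values by limma (0.12) or the methods' t-test (0.12). The adjusted p of *Myog* was 0.0348 with the methods' t-test and 0.0463 with an offset of 10 (limma). By limma it was 0.216 from processed signals, 0.484 from Cy5 alone, 0.742 with median centring and 0.800 in the deposited values. *Cdh15* passed in 11 of 19 alternatives, at 0.39 in the deposited values (limma and t-test), 0.25 without a filter, with a filter at 1.5 times the background, with slide as a block, with the mean of a gene's probes and in the permutation within slides, 0.29 without the 4 arrays of the dimmest slide, slide 1, 0.25 with brightness as a covariate and 0.33 with slide besides. *Myf6* passed with array weights (0.31), without slide 1 (0.35) and with slide and brightness (0.42). *Id1* passed with array weights (0.25) and without slide 1 (0.29).

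Replicate numbers did not pair the arrays: the deviations of same-numbered arrays correlated at -0.22 to 0.53 over 12 pairs, 3 above 0.1, and 1 pair was best with its own number. With the replicate block, *Myf6* (0.27, p = 0.0264) and *Cdh15* (0.25, p = 0.0264) passed, and *Myog* stayed past the threshold (p = 0.00464, limma). As the numbers did not pair the arrays, this planned block has no shown basis and its p-values add no support. The counts of alternatives above include it.

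Leaving out 1 array gave 0.20 to 0.35 for *Myf6*, -0.12 to -0.036 for *Mef2a*, 0.0083 to 0.16 for *Mef2c*, 0.065 to 0.16 for *Mef2d*, 0.14 to 0.27 for *Cdh15* and 0.17 to 0.26 for *Id1*. The second *Mef2a* probe ranged from -0.062 to 0.0029, the latter without Hypox replicate 5. Probes changed sign as follows, with no p under 0.05. With median centring, the brighter *Mef2a* probes were at 0.21 and 0.19, the dimmer *Mef2d* probes at 0.17 and 0.085, and *Pax7* at 0.0014. From Cy5 alone, the second *Mef2a* probe was at 0.023, *Mef2c* at -0.021 and the second *Mef2d* probe at 0.0057. In the deposited values, *Mef2a* was at 0.0065 and 0.018 and *Myod1* at -0.011, by either test. *Mef2c* was at -0.054 from processed signals, *Myf5* at -0.0010 with array weights and *Mef2d* at -0.016 as the mean of its probes. Processed signals put *Pax7*, which was not well above background on any array, at -0.59 (p = 0.0121).

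The number of probes past p = 0.05 was 2011, and 143 after adjustment. Leaving out 1 array gave 1720 to 2272 and 51 to 238. Median centring gave 59 and 0, Cy5 alone 1321 and 73, the deposited values 974 and 1 (limma) or 1042 and 0 (t-test), and no filter 4487 and 45. After adjustment, processed signals gave 217, the t-test 89, array weights 668, and slide with brightness 67. *Myog*, *Myod1*, *Myf5* and *Pax7* were the dimmest members over background. The causes of these shifts were not tested.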
